A study of Rattus norvegicus with 9 samples.

Results

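Genes of the cytosolic ribosomal proteins were followed in RNA of the renal outer medulla of 9 rats. A gene was taken when its row in the deposited table carried a single name of the form Rpl, Rps or Rplp with a number (or Rpsa), and the row with the highest mean was used where a name occurred more than once. The rule matched 140 of the 30315 loci and gave 91 genes, 51 of the large and 40 of the small subunit. Of these, 73 belong to a reference list of the core proteins, those found in nearly every ribosome, and 18 are paralogs or other names outside it. At least 1 FPKM on average was reached by 82 genes (43 core large, 30 core small and 9 outside the core), and these were tested. Of the 9 that were not tested, all outside the core, 4 were listed at 0 in all 9 libraries (Rpl31l3, Rpl34l1, Rps15al1 and Rps19l1). Among the core genes that the rule did not take were Rpl7a, Rpl19, Rpl28, Rps9 and Fau.

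All rats were of the salt-sensitive strain MCW SS, 3 in each group, with 1 library per rat. Rats labelled 0.4% salt ate a diet with 0.4% NaCl and underwent the surgery of the other groups, and their tissue was taken before a GapmeR (an antisense oligonucleotide that directs cleavage of its target RNA) or a high-salt diet was given. Rats labelled HS_SCR received a scrambled GapmeR at 4 mg/kg into the kidney and 7 days of 4% NaCl. Rats labelled HS_DT received GapmeRs against Dnmt3a and Tet3 at 2 mg/kg each in the same way and the same diet. Age is not given in the sources used here. Rats also carry numbers from a low or a high range (called the lower and higher series here), whose meaning is not given in the sources used here. The 0.4% salt group has 3 rats of the higher series, and HS_SCR and HS_DT have 2 of the lower and 1 of the higher series each. HS_SCR and 0.4% salt thus differ in diet, oligonucleotide, the 7 days and partly in series. Diet, oligonucleotide and time cannot be told apart. The values are FPKM, fragments scaled to transcript length and to the mapped fragments of the library, so every level is relative to the rest of its library.

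A ribosome is built from a large and a small subunit. The small subunit reads the messenger RNA, the large subunit forms peptide bonds and holds the exit tunnel, and most core proteins are present as a single copy per particle. The genes of these proteins are among the most abundantly transcribed in any cell. Their messenger RNAs begin with a C in a run of pyrimidines, the TOP motif (terminal oligopyrimidine), through which mTOR signalling controls their translation. Because tissue was measured whole, fewer cells of a type and less RNA per cell cannot be told apart.

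The start sites are shown first because the TOP motif lies there. RefSeq windows on build GRCr8 matched 67 of the 91 genes (68 windows, each 250 bases before and 50 after the annotated start). The 30 bases around the start, 15 on each side, are given 5′ to 3′ for 10 members with a run of at least 8 pyrimidines there. They were picked by hand from the stalk, the peptidyl transferase region, the exit tunnel, the messenger RNA channel, the most abundant genes and the parents of paralogs. Rps7 comes from the genes known from Diamond-Blackfan anaemia (described below). Capitals mark the unbroken run of C or T that holds the start.
Rplp0, chr12:46718376-46718405, minus strand: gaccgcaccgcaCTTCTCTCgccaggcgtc
Rplp1, chr8:71290858-71290887, minus strand: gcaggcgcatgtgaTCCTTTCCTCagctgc
Rpl10, chrX:157205835-157205864, plus strand: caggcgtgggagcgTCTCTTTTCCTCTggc
Rpl35, chr3:43165907-43165936, minus strand: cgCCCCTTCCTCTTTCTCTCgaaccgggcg
Rpl37a, chr9:81748076-81748105, plus strand: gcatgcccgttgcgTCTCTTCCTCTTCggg
Rpl22, chr5:168117946-168117975, plus strand: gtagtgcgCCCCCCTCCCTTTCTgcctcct
Rps14, chr18:56498245-56498274, plus strand: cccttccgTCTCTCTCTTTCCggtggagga
Rps26, chr7:1643390-1643419, minus strand: gagagccgccgggTCCTCTTTCgagtcttg
Rps27, chr2:177964592-177964621, minus strand: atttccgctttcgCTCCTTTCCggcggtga
Rps7, chr6:50999431-50999460, minus strand: tcgcgagagctgtgTCTCTTTCTaagccgg

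The paralogs whose values are described further on are shown beside 2 core genes without a run at the start, Rps28, which had the largest change of the small subunit, and Rpl41, the most abundant member. Rps4y2 has a run of 8 pyrimidines, and the other windows have no pyrimidine at the annotated start. That is not particular to paralogs: of 58 core genes with a window 16 have none there either, and Rpl7l1 and Rps28 have a C followed by at least 4 pyrimidines within 10 bases of the start.
Rps27l, chr8:76443643-76443672, plus strand: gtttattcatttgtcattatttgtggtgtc
Rpl22l1, chr2:113683181-113683210, plus strand: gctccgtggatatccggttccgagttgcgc
Rpl7l1, chr9:21695703-21695732, plus strand: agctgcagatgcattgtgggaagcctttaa
Rps4y2, chr4:183000898-183000927, plus strand: gcgcgcagCTCTCCTCactcgcttgtgctc
Rps28, chr7:15311319-15311348, minus strand: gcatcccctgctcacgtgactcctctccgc
Rpl41, chr7:1563483-1563512, minus strand: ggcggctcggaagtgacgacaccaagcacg

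A C at the annotated start followed by at least 4 pyrimidines stood in 32.4% of the ribosomal protein windows and in 2.63% of all 33469 windows. Allowing the tract to begin anywhere from 10 bases before to 10 after the start, the shares were 69.1% and 28.9%. A run of at least 8 pyrimidines holding the start was present in 44.1% and 4.43%. Upstream and downstream motifs were searched on both strands over the 300 bases. The letters CCGGAAG, the core of an ETS site, stood in 30.9% of ribosomal protein windows and 8.75% of all windows. The GC box GGGCGG stood in 54.4% and 33.1%, the YY1 letters AAGATGGC in 10.3% and 3.17%, and TCTCGCGA in 16.2% and 0.855%. TATAAA was present at similar shares, 13.2% and 14.2%. A match of letters is a description of these windows and does not show that a factor binds there.

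The 250 bases upstream of the start are given for 1 core gene of each subunit with the most of these 5 motifs in its 300 bases, the more abundant where genes tied, with the motifs in capitals. Rps14, a protein of the messenger RNA channel, has a pair of ETS letters, a pair of GC boxes and the YY1 letters, and Rpl39, a protein of the exit tunnel, has a GC box and TATAAA, while its ETS letters are not wholly within the stretch given.
Rps14, chr18:56498010-56498259, plus strand: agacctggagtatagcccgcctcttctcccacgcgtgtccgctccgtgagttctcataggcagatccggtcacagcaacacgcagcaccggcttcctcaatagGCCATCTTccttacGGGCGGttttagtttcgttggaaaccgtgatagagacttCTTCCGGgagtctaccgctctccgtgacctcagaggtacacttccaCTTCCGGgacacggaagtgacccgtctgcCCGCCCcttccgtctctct
Rpl39, chrX:121195897-121196146, minus strand: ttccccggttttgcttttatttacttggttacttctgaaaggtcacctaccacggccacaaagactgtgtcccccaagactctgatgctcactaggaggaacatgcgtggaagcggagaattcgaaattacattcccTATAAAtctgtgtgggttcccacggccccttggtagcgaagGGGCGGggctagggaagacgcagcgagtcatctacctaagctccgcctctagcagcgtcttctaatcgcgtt

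Before the results, the libraries themselves. Dnmt3a stood at 12.2 to 13.4 FPKM in 0.4% salt, 5.75 to 10.3 in HS_SCR and 8.72 to 11.02 in HS_DT, and Tet3 at 8.47 to 9.64, 5.04 to 8.20 and 7.62 to 8.54. Neither target had a lower mean in HS_DT than in HS_SCR, so groups are named by their labels only. Relative depth, estimated from the steps of low values, ran from 0.750 to 1.36 of that of 0.4% salt replicate 1. Rank correlations between libraries were 0.931 to 0.968 within HS_SCR, 0.979 to 0.983 within 0.4% salt and 0.968 to 0.984 within HS_DT, and HS_SCR replicate 3 stood apart. Results that rest on that library are given with and without it. Summed proximal tubule markers ran from 1174 to 3098 FPKM in 0.4% salt, 135 to 646 in HS_SCR and 476 to 2044 in HS_DT. Those of the thick ascending limb, which defines this zone, ran from 3117 to 4855, 1421 to 3496 and 2744 to 3748 FPKM. Macrophage markers summed to 1904 to 2216, 3290 to 4751 and 3097 to 3671 FPKM, and erythroid markers to 778 to 1141, 1951 to 10753 and 2466 to 3326 FPKM. Neutrophil markers summed to 4.40 to 6.20, 71.3 to 436 and 23.9 to 56.2 FPKM, and of 7 listed only S100a8 and S100a9 reached the filter. The erythroid sum is mostly haemoglobin. Of 7 tested erythroid markers, 5 were higher in HS_SCR than in 0.4% salt, and Slc4a1 and Tfrc stood at log2 changes of -0.19 and -0.41. Against the fall of their lists, Dpep1 (proximal tubule) and Cldn19 (thick ascending limb) stood at 0.36 and 0.32. Of the lymphocyte markers, Cd79a was at 0 in all 9 libraries. Mitochondrially encoded loci took 20.6% (HS_SCR replicate 3) to 31.9% of the FPKM of a library. These shifts ran alongside the ribosomal protein values below, and their part in them was not tested except where a fit with the value is given.

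Ribosomal protein genes were abundant in every library. Core genes of the large subunit had a median of 795 FPKM over the 9 libraries and core genes of the small subunit 1025 FPKM, against 10.99 FPKM over the 14338 tested loci and 42.8 FPKM for the 9 tested genes outside the core. Rpl41, a very short basic protein, was the most abundant member at 5507 FPKM, and it was the only one of the leading 10 whose range did not overlap that of the next. It was followed by Rpl37a (2829 FPKM) and Rps29 (2757), both zinc-binding proteins, then Rps27 (1996), Rpl26 (1795) and Rps24 (1771). Among the core genes, 71 of 73 had a mean of at least 100 FPKM. The other two were Rpl8, at 87.2 FPKM, and Rps19, whose row stood at 1.05 FPKM. Levels between genes are compared per length here, as FPKM.

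The share of FPKM held by the 91 genes, leaving out mitochondrially encoded loci, was 12.5%, 10.7% and 11.9% in the 0.4% salt libraries. In HS_SCR it was 14.9%, 14.98% and 16.6%, and in HS_DT 12.5%, 12.9% and 12.8%. All 3 HS_SCR libraries were above all others, and the HS_DT libraries lay near or just above the highest 0.4% salt library. The median core gene stood at 9.59, 9.40 and 9.46 on the log2(FPKM + 1) scale in 0.4% salt, at 10.15, 10.16 and 10.15 in HS_SCR and at 9.71, 9.71 and 9.73 in HS_DT.

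**Figure D1:**
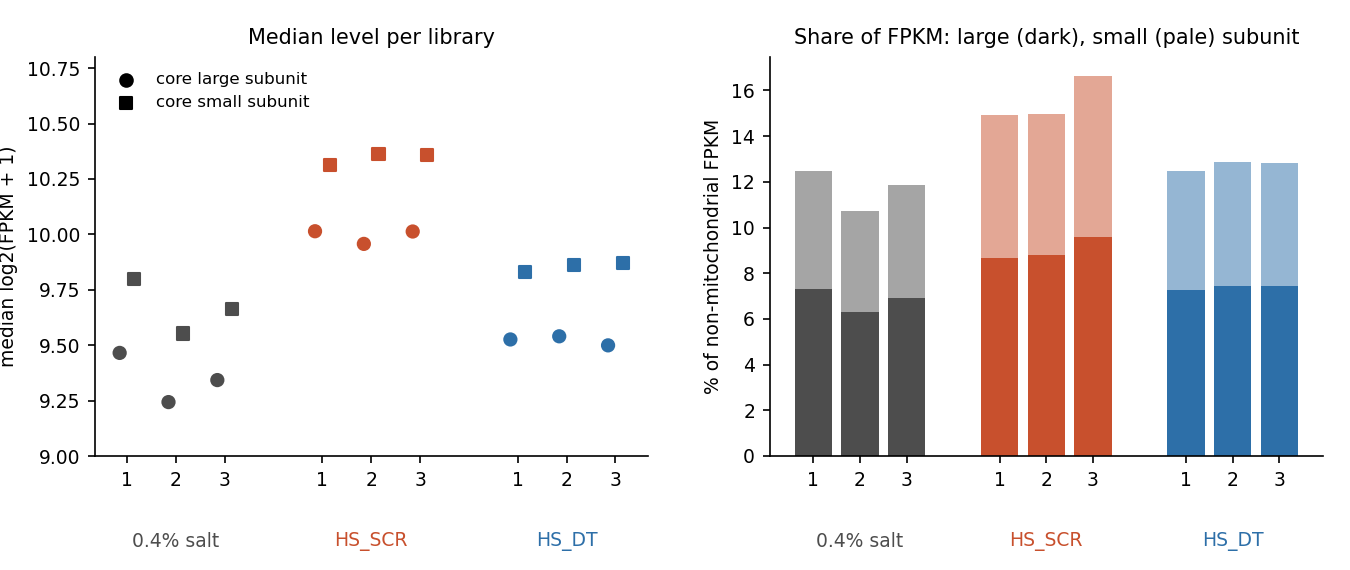
Left, median log2(FPKM + 1) of the core large (circles) and small (squares) subunit genes in each of the 9 libraries (replicates 1 to 3 of each group; the axis starts at 9). Right, percent of non-mitochondrial FPKM held by all ribosomal protein genes, large subunit dark and small subunit pale. The HS_SCR libraries were the highest in both plots, and their share ran from 14.9% to 16.6%.

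Against 0.4% salt, ribosomal protein genes of both subunits were higher in HS_SCR by similar amounts. Of 82 tested genes, 72 rose and 0 fell (limma, adjusted p under 0.05), where 8.20% of all tested loci rose and 4.88% fell. The median log2 change was 0.65, against 0.02 over all tested loci. In the large subunit 42 of 47 rose (median 0.63) and in the small subunit 30 of 35 (median 0.65). Among core genes the counts were 41 of 43 and 29 of 30, with a median of 0.65 in both, and outside the core 2 of 9 rose. FPKM ranges of the groups did not overlap, HS_SCR above, at 75 of 82 genes, and at 19.1% of all tested loci. The members were picked as a family after a rise had been seen in many of them, so the count describes them and does not test the family.

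The ribosomal stalk, which recruits the elongation factors, is formed by Rplp0, Rplp1 and Rplp2 on a base that includes Rpl12. Rplp0 stood at 856, 780.5 and 854 FPKM in 0.4% salt, 1404, 1293 and 1355 in the HS_SCR libraries and 998, 1022 and 959.8 in HS_DT. All HS_SCR libraries were above all HS_DT libraries, and those above all 0.4% salt libraries. It rose by a log2 change of 0.70 ± 0.09 (SE) from 0.4% salt to HS_SCR (adjusted p = 0.00566). Rplp1 rose by 0.76 ± 0.10 and Rpl12 by 0.76 ± 0.08, and for both the HS_SCR range lay above those of the other groups. HS_DT and 0.4% salt overlapped at Rplp1 but not at Rpl12.

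Rplp2 did not follow them. Its row (rn5 chr1:220908602-220910873) stood at 467, 20.9 and 25.2 FPKM in 0.4% salt, 687, 732 and 28.8 in HS_SCR, with 129, 20.4 and 464 in HS_DT. High and low libraries occurred in every group, with the ranges overlapping, and the change of 1.94 ± 1.68 did not pass (adjusted p = 0.457).

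At the peptidyl transferase region, where peptide bonds form, 3 of 3 genes rose. Rpl10, which completes the large subunit late in its assembly, stood at 624, 585 and 626 FPKM in 0.4% salt, 999.9, 961 and 990.5 in the HS_SCR libraries and 713, 743 and 716 in HS_DT. Replicates lay close together and the 3 groups did not overlap. Its log2 change was 0.68 ± 0.08 (adjusted p = 0.00566). Rpl3 and Rpl8 both rose by 0.60, with SE 0.09 and 0.11.

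All 7 tested proteins of the exit tunnel rose, by 0.59 to 0.71, with Rpl26 at the lower and Rpl17 at the upper end. Rpl39, which lines the tunnel, stood at 1057, 883 and 925 FPKM in 0.4% salt, 1636, 1579 and 1416 in HS_SCR, with 1209, 1221 and 1103 in HS_DT, again with no overlap. Rpl5 (0.65 ± 0.10) and Rpl11 (0.59 ± 0.09) both rose. They carry the 5S ribosomal RNA into the large subunit and, when free, bind Mdm2, which regulates p53.

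On the small subunit, all 5 tested proteins of the messenger RNA channel and its exit rose. Rps28 had the largest change of the small subunit, from 1286, 1146 and 1360 FPKM in 0.4% salt to 2231, 2382 and 2222 in HS_SCR, with 1366, 1443 and 1486 in HS_DT. The HS_SCR libraries stood far above both other groups. The change was 0.85 ± 0.10 (adjusted p = 0.00566). Rps3, at the channel entry, had the smallest change of the 5, 0.53 ± 0.13. Rps26 (0.65 ± 0.10), Rps14 (0.67 ± 0.11) and Rps2 (0.65 ± 0.10) lay between.

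Of 9 genes known from Diamond-Blackfan anaemia, a red cell disorder caused by mutations in ribosomal protein genes, 8 rose and Rps19 did not pass. Outside that list, Rps27, a zinc-finger protein whose change of 0.81 ± 0.12 was the second largest of its subunit, stood at 1731, 1396 and 1417 FPKM in 0.4% salt, 2545, 2446 and 2966 in the HS_SCR libraries and 1863, 1868 and 1735 in HS_DT. Groups did not overlap. Rps12 rose by 0.81 ± 0.10, and Rpl36 and Rpl36a had the largest called changes of the large subunit, 0.80 ± 0.10 and 0.79 ± 0.10. The smallest called changes were those of Rps25 (0.50 ± 0.11) in the small and Rpl22 (0.55 ± 0.08) in the large subunit. Apart from Rplp2, the core changes thus lay between 0.47 and 0.85.

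**Figure D2:**
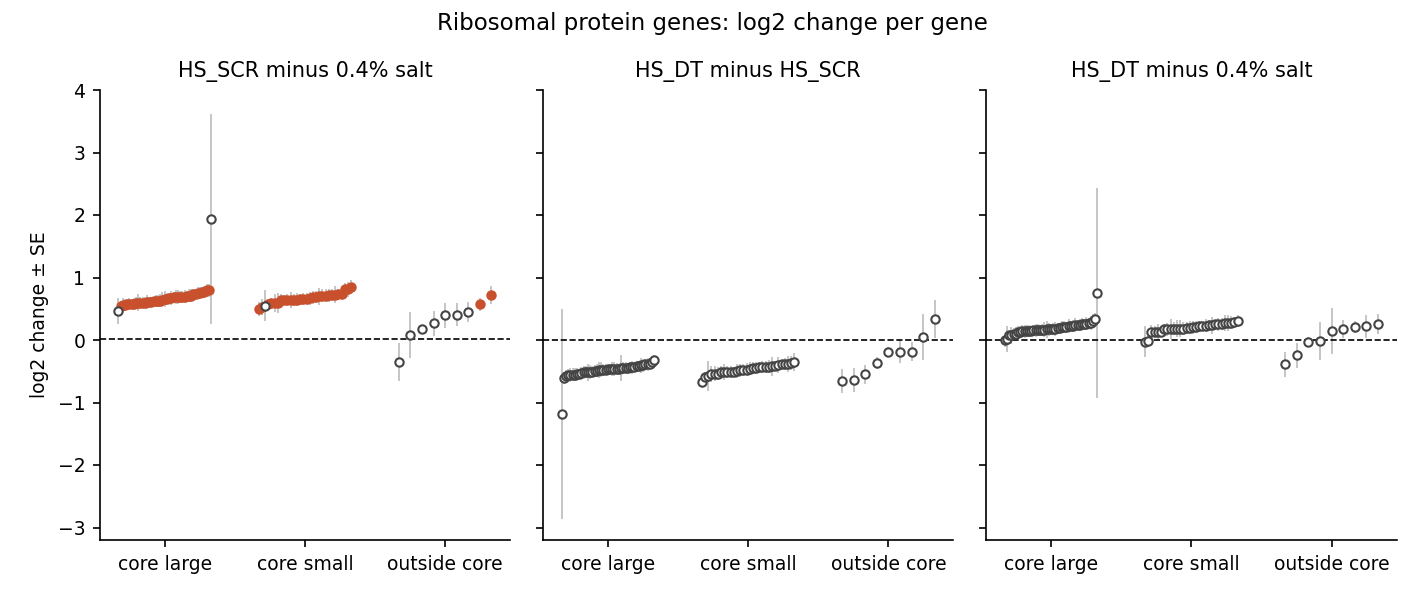
Log2 change (with SE as grey bars) of each tested ribosomal protein gene in the 3 comparisons, sorted within the 43 core large, 30 core small and 9 other genes; filled points have an adjusted p under 0.05 and the dashed line is the median of all tested loci. In HS_SCR minus 0.4% salt 72 points are filled, and in the other comparisons none; the long bar is Rplp2.

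Besides Rplp2, 2 core genes did not pass. Rpl27a stood at 826, 715 and 809.5 FPKM in 0.4% salt, 1217, 1208 and 857 in HS_SCR, with 924, 927.5 and 575 in HS_DT. The third library of each high-salt group was the low one, and both of those rats come from the higher series of rat numbers. Its change was 0.47 ± 0.21 (adjusted p = 0.169), and without HS_SCR replicate 3 it was 0.63 (adjusted p = 0.0454). The Rps19 row (rn5 chr9:15652452-15745601) stood at 0.698 to 0.828 FPKM in 0.4% salt, 1.39 to 1.83 in HS_SCR and 0.157 to 1.45 in HS_DT (0.55 ± 0.25, adjusted p = 0.164). These levels are far below those of every other core gene, and this row says little about the gene.

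The count of rises moved with the scale and with a covariate for tubule markers. Under quantile normalization, which gives every library the same distribution, 6 of 82 rose, beside 6.35% of all loci, so the count was near the background, and the median was 0.20 against 0.03 over all loci. With each library's proximal tubule score in the fit, 0 of 82 ribosomal protein genes and 0 of all loci passed, and the median was 0.62. When each library was scaled without mitochondrially encoded loci, the median of all loci moved to -0.21. On that scale 59 ribosomal protein genes rose, beside 2.73% of all loci (20.3% fell), with a median of 0.39, which is 0.60 above all loci. With the rat number series in the fit 68 rose, beside 5.88% of all loci. Of the higher series, 1 library is HS_SCR, and the lower series holds no 0.4% salt library. The count was 75 without HS_SCR replicate 3, where 20.5% of all loci rose and 15.7% fell. It was lowest, at 56, without 0.4% salt replicate 2, where 1.8% of all loci rose.

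Between the groups on high salt, ribosomal protein genes were lower in HS_DT than in HS_SCR, but none passed the test with all 9 libraries. By limma, 0 of 82 genes were called in either direction at an adjusted p under 0.05, where 0% of all tested loci were called higher and 0.00697% lower, which is 1 locus. The median log2 change was -0.47, against -0.00 over all loci, with -0.47 in the large and -0.48 in the small subunit. At an unadjusted p under 0.05 stood 76 of the 82, beside 11% of all loci lower and 8.06% higher. In 73 genes, every HS_DT library was below every HS_SCR library, beside 12.5% of all tested loci.

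Rpl32, on the surface of the large subunit, stood at 1758, 1847 and 2008 FPKM in HS_SCR and 1215, 1223 and 1246 in HS_DT, with a gap between the groups and a narrow spread in HS_DT. Its change of -0.60 ± 0.10 (95% interval -0.82 to -0.39) had an adjusted p of 0.0644. Rps28 had the lowest value of the small subunit, -0.67 ± 0.10 (-0.90 to -0.44, adjusted p = 0.0644), and Rps4x stood at -0.60 ± 0.09. At the other end of the core genes were Rpl10a (-0.32 ± 0.08, adjusted p = 0.0986) and Rps6 (-0.35 ± 0.14, adjusted p = 0.218). Rps6, the substrate of S6 kinase, had 114, 130 and 157 FPKM in HS_SCR and 92.8, 102 and 117 in HS_DT, where the ranges overlapped. These values are of the row used, which averaged 108 FPKM, while another row of the name, not used, averaged 76.6. Core genes lay between -0.32 and -0.67 apart from Rplp2 at -1.18 ± 1.68.

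That count of 0 rested on a single library and on the filter. Without HS_SCR replicate 3, 69 of 82 were called lower, beside 9.29% of all loci, with a median of -0.45. With the series of rat numbers in the fit 48 were called lower (2.06% of all loci), and with a minimum mean of 5 FPKM 30 of 80 (1.18%). Without HS_SCR replicate 1, 6 were called lower (Rpl13, Rpl22, Rpl32, Rpl36a, Rps4x and Rps28) and 1, Rps4y2, higher, beside 0.767% and 0.488% of all loci. With that tubule score in the fit the median was -0.44 with 0 called. By label the HS_DT and HS_SCR rats differ in oligonucleotide only. The tubule and blood cell markers above differ between them as well, and their part was not tested beyond that covariate.

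Ribosomal protein genes in HS_DT stood near those of 0.4% salt. By limma 0 of 82 genes passed at an adjusted p under 0.05, as did 0% of all loci, and the median was 0.18 against 0.01. At an unadjusted p under 0.05 stood 21 genes, beside 5.2% of all loci higher and 2.29% lower. The HS_DT libraries were all above the 0.4% salt libraries at 44 genes, beside 14.2% of all tested loci. The largest core value after Rplp2 was that of Rpl12, which stood at 443, 397 and 431 FPKM in 0.4% salt and 563, 547 and 504 in HS_DT. These ranges did not overlap, and the difference was 0.34 ± 0.08 (95% interval 0.15 to 0.53, adjusted p = 0.37). Rps12 and Rpl39 followed, at 0.30 ± 0.10 and 0.30 ± 0.11. Rps4x (-0.02 ± 0.09), Rps19 (-0.03 ± 0.25) and Rpl21 (-0.00 ± 0.11) were the lowest core genes, and Rps15al4 (-0.39 ± 0.20) was the lowest of all members. This comparison shares its libraries with the other comparisons, so the 3 sets of values are not independent.

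Large and small subunit genes kept a nearly constant distance. The median core large subunit gene stood below the median core small subunit gene in all 9 libraries, by -0.34, -0.31 and -0.32 on the log2 scale in 0.4% salt, -0.30, -0.41 and -0.35 in the HS_SCR libraries and -0.31, -0.32 and -0.37 in HS_DT. Ranges overlapped between all groups. In the share of FPKM, the large subunit held 7.31%, 6.28% and 6.92% in 0.4% salt and 8.68%, 8.81% and 9.58% in HS_SCR, and the small subunit 5.18%, 4.44% and 4.96% and then 6.25%, 6.17% and 7.06%.

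Core genes varied less within a group than the median locus in HS_SCR and HS_DT, but not clearly so in 0.4% salt. The median coefficient of variation over the 3 rats was 7.93%, 5.68% and 3.03% in 0.4% salt, HS_SCR and HS_DT for the large subunit, and 8.70%, 5.35% and 5.06% for the small subunit. For all tested loci, most of them far less abundant, it was 8.28%, 18.02% and 8.99%. The spread of core genes was thus below that of the median locus in HS_SCR and HS_DT. In 0.4% salt it was near it, with the small subunit above. Over the 9 libraries, the Pearson correlation of a core gene with the median core gene had a median of 0.977, and 66 of 73 exceeded 0.9. The lowest were Rplp2 (0.460), Rps19 (0.646) and Rpl27a (0.647). Across 72 core genes without Rplp2, the change from 0.4% salt to HS_SCR had a correlation of 0.30 with the log2 mean level and -0.16 with the log2 width of the locus, as a description over genes that share all libraries.

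To ask whether single members moved apart from the family, each library was centred on its median core gene. After centring, 2 of 82 genes passed in HS_SCR against 0.4% salt, both lower and both outside the core, where 78.9% of all loci were lower and 0.579% higher. These were Rpl7l1 and Rps4y2. Against HS_SCR, Rpl7l1 alone passed in HS_DT (higher, as were 53.6% of all loci, with 0.188% lower), and from 0.4% salt to HS_DT 0 genes and 0% of loci passed. No core gene was called in any of these, so none could be told from the family at this spread.

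Rpl7l1 (rn5 chr9:15415804-15423817), a relative of Rpl7 known from early assembly of the large subunit, stood at 43.7, 39.9 and 40.3 FPKM in 0.4% salt, 43.7, 47.3 and 48.8 in the HS_SCR libraries and 39.6, 39.4 and 42.8 in HS_DT. The 0.4% salt range overlapped those of HS_SCR and HS_DT, while every HS_DT library was below every HS_SCR library. The log2 change from 0.4% salt to HS_SCR was 0.17 ± 0.08 (adjusted p = 0.168), and it was -0.087 on the scale without mitochondrially encoded loci. Relative to the core median the change was -0.50 ± 0.08 (adjusted p = 0.000906), and 0.24 ± 0.08 from HS_SCR to HS_DT (adjusted p = 0.0378). Its log2 ratio to Rpl7 was -3.93, -3.94 and -3.97 in 0.4% salt, -4.45, -4.36 and -4.36 in the HS_SCR libraries and -4.17, -4.19 and -4.08 in HS_DT. The 3 groups did not overlap. The exact two-sided permutation p was 0.1 in each comparison, the smallest that 3 against 3 libraries allow (0.54 after adjustment over the 18 tests of 6 pairs).

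The ratios of the other 5 pairs overlapped between all groups. Rps27l (rn5 chr8:77075340-77078924), a paralog of Rps27 that p53 can induce, stood at 196, 172 and 179 FPKM in 0.4% salt, 281, 289 and 187 in HS_SCR, with 214, 221 and 219 in HS_DT. HS_SCR replicate 3 lay within the 0.4% salt range while the other two stood far above it. The change was 0.44 ± 0.16 (adjusted p = 0.0928), and 0.65 without that library (adjusted p = 0.00185). Rpl22l1, which can replace Rpl22, showed the same split, with 160, 144 and 93.3 FPKM in HS_SCR against 109, 90.1 and 93.2 in 0.4% salt. Its change was 0.41 ± 0.18 (adjusted p = 0.165), and 0.64 without HS_SCR replicate 3 (adjusted p = 0.00342). The parent genes Rps27 and Rpl22 were at their highest in that same library, at 2966 and 414 FPKM.

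Rps4y2 (rn5 chr4:246754560-246979584), a relative of the X-linked Rps4x, stood at 10.5, 10.1 and 12.3 FPKM in 0.4% salt, 15.9, 5.73 and 6.17 in the HS_SCR libraries and 11.6, 10.2 and 10.5 in HS_DT. HS_SCR held both its highest and its lowest values. Its change was -0.35 ± 0.31 (adjusted p = 0.46), it was -0.78 without HS_SCR replicate 1 (adjusted p = 0.0118), and relative to the core median it was -1.02 ± 0.30 (adjusted p = 0.0131). The Rps4y2 row spans 225024 bases, beside a median of 2955 for core genes, and whether it holds only this gene was not tested. Rpl10l, a relative of Rpl10 known from the male germ line, was near the lower limit, at 0.569 to 2.91 FPKM over the 9 libraries.

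The row named Rpl36al, the name of a retained second gene for the protein of Rpl36a, was the most abundant outside the core. It stood at 335, 311 and 285 FPKM in 0.4% salt, 499, 472 and 412 in HS_SCR, with 369, 355 and 347 in HS_DT, with no overlap between HS_SCR and the others. It rose by 0.57 ± 0.10 in HS_SCR (adjusted p = 0.0121), beside 0.79 ± 0.10 for Rpl36a. Rps27l3 rose as well (0.73 ± 0.15, adjusted p = 0.0177). Rps10l1 (0.40 ± 0.20) and Rps15al4 (0.27 ± 0.20) did not pass. In HS_DT, Rps15al4 and Rps10l1 stood at -0.66 ± 0.20 and -0.64 ± 0.20 against HS_SCR without passing (adjusted p = 0.138 and 0.148).

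**Figure D3:**
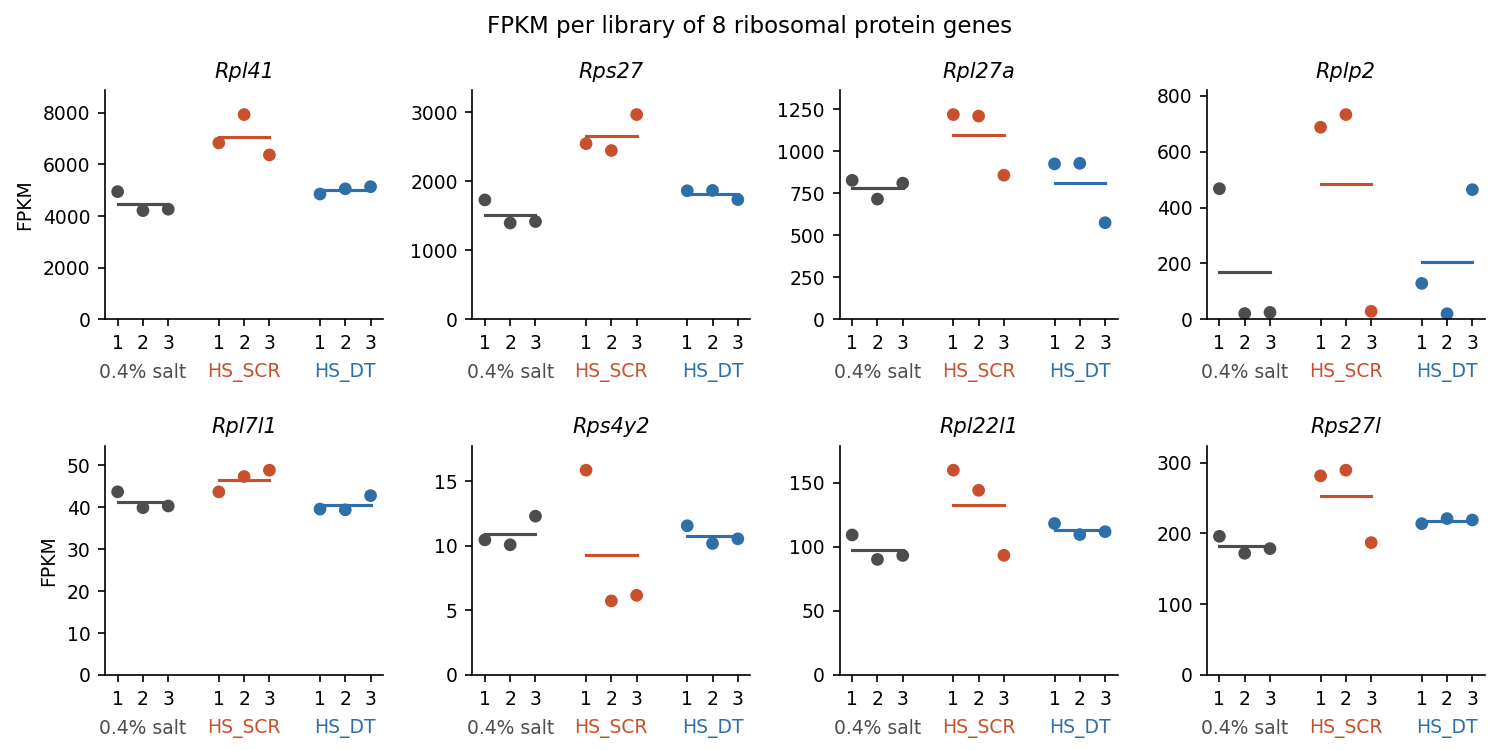
FPKM of 8 ribosomal protein genes in each library (points; lines are group means of 3 rats; each panel has its own axis from 0). Rpl41 and Rps27 show the common pattern, Rpl27a, Rpl22l1 and Rps27l are low in HS_SCR replicate 3, Rplp2 switches between about 20 and 732 FPKM, and Rpl7l1 is nearly level.

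**Figure D4:**
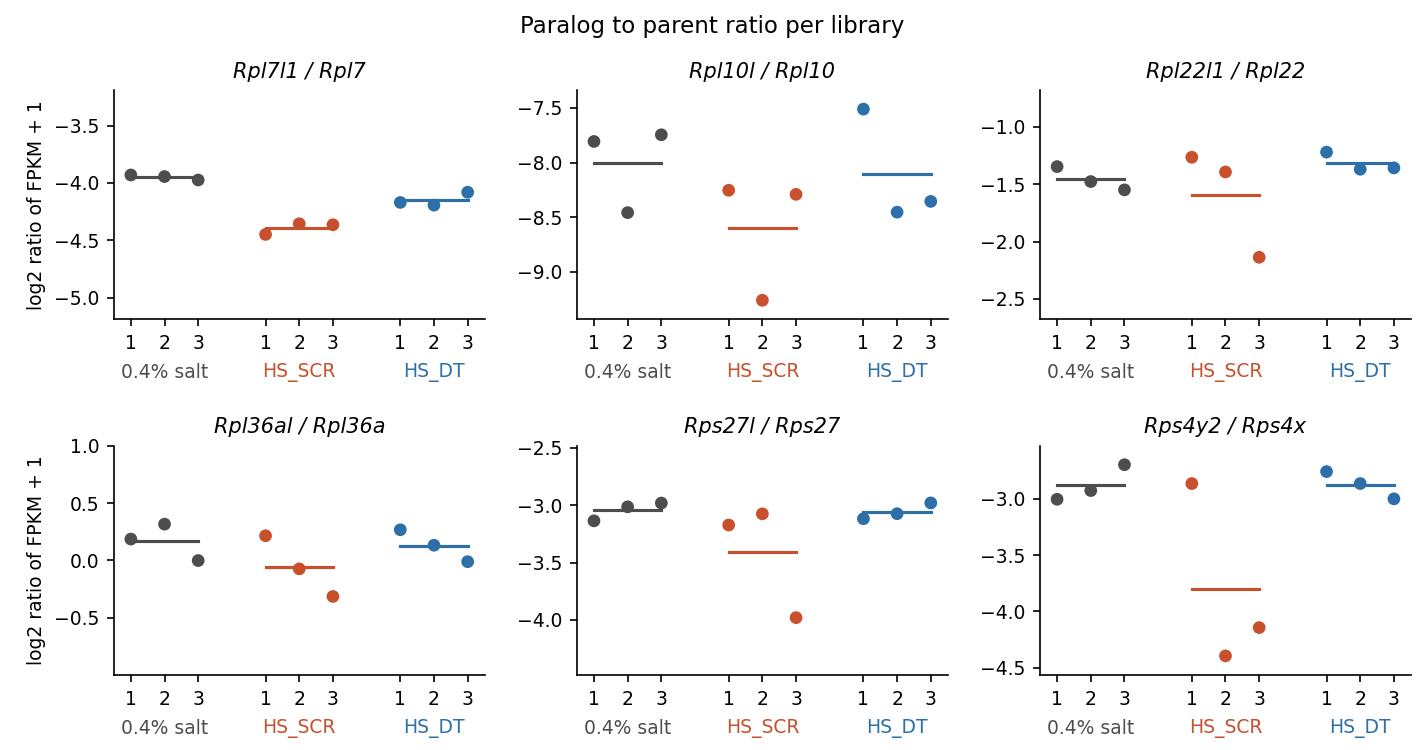
Log2 ratio of paralog to parent gene (FPKM + 1) in each library for the 6 pairs with both genes tested; lines are group means of 3 rats and the axes differ. For Rpl7l1 to Rpl7 the groups do not overlap, and for the other 5 pairs they do.

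Ribosomal protein genes have many processed copies in the genome, and how the authors' counting shared fragments among copies was not tested. RefSeq lists 798 pseudogenes named for 76 of the 91 genes. Of 79 tested genes with a RefSeq gene of the same name, 74 had at least 1 of their RefSeq neighbours close by in the table. Rpl8, Rpl21, Rps4x, Rps15al4 and Rps27l3 had none, so their rows may not be the named gene. Rpl36al, Rps10l1 and Rpl10l had no protein-coding RefSeq gene of the name, so their rows could not be checked in this way. RefSeq also gives the names of 5 tested genes as synonyms of pseudogenes: Rpl4 (Rpl4-ps8), Rpl12 (Rpl12-ps1), Rps2 (Rps2-ps6), Rps4x (Rps4x-ps9) and Rps27l3 (Rps27a-ps12). Adding up all rows of a name left the number of rises at 72, beside 8.13% of all loci. The Rpl19 locus, which carries a second name and was not tested as a member, stood at 792, 720 and 737 FPKM in 0.4% salt, 1158, 1211 and 1096 in the HS_SCR libraries and 832, 846 and 851 in HS_DT. The Rps9 locus, left out for the same reason, stood at 154, 109 and 143 FPKM in 0.4% salt and 199, 200 and 227 in HS_SCR. In HS_DT it stood at 198, 195 and 145. Most of its HS_DT values lay just below the HS_SCR range, and the last lay within that of 0.4% salt.

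The start tract was set beside the changes. Of core genes with a window, the 22 with a C and at least 4 pyrimidines at the annotated start all rose in HS_SCR, with a median of 0.68. Of the 36 without it, 33 rose, with a median of 0.65. With the tract anywhere within 10 bases, 43 of 44 rose (median 0.67), and without it 12 of 14 (median 0.63). The genes without a tract within 10 bases that did not rise were Rplp2 and Rps19, whose rows were described above as switching and as very low. Windows were matched by name across builds. For Rps19, Rpl21, Rps4x, Rps15al4, Rps27l3 and Rpl10 the window and the row lie on different chromosomes, so they may be different loci. Of the 10 rows flanking each, 9 at Rpl10 and 3 at Rps19 also flank the gene in RefSeq. Genes with the ETS letters had a median of 0.65 and those without 0.67. The core genes printed above with a marked run at the start rose by 0.55 (Rpl22) to 0.81 (Rps27). Rps4y2, outside the core and printed with a run of 8 pyrimidines, stood at -0.35 and did not pass. No test of the differences between genes with and without these letters was made.

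Most other translation genes whose messenger RNAs carry a TOP motif rose as well. Of 18 tested, 16 rose in HS_SCR against 0.4% salt (median 0.50), where 8.20% of all tested loci rose with a median of 0.02, and Eif3h and Eif4b did not pass. Fau, which encodes a small subunit protein fused to a ubiquitin-like protein, stood at 881, 763 and 799 FPKM in 0.4% salt, 1320, 1359 and 1219 in HS_SCR, with 997, 985 and 943 in HS_DT, and rose by 0.67 ± 0.09 (adjusted p = 0.0069). Gnb2l1, the Rack1 scaffold of the small subunit, rose by 0.58 ± 0.08, and Eif3f, of initiation factor 3, by 0.65 ± 0.10. Of 43 ribosome assembly genes 12 rose (median 0.30, beside the same 8.20% of all loci), among them Pes1 (0.57 ± 0.09) and Utp3 (0.40 ± 0.07).

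Among 13 genes of mTOR signalling, its targets and Myc, 4 rose and 0 fell, beside 8.20% and 4.88% of all loci. Their median log2 change was -0.04, with 6 genes above and 7 below 0. Myc, a transcription factor that drives ribosome production, stood at 13.9, 16.9 and 16.6 FPKM in 0.4% salt, 32.1, 36.4 and 41.2 in the HS_SCR libraries and 22.7, 27.7 and 20.0 in HS_DT, and rose by 1.16 ± 0.14 (adjusted p = 0.00566). Eif4ebp1, the translational repressor that mTOR phosphorylates, rose by 1.00 ± 0.12, Rheb by 0.34 ± 0.08 and Max by 0.36 ± 0.08. Mtor itself stood at -0.04 ± 0.08, and Eif4ebp2 (-0.59 ± 0.24) and Larp4 (-0.58 ± 0.18) were the lowest of the list without passing. Of 71 genes for mitochondrial ribosomal proteins, 3 rose, with a median of 0.07, where 8.20% of all loci rose. In the other 2 comparisons 0 genes of any of these lists were called by limma. At an unadjusted p under 0.05 stood 17 of the 18 TOP genes in HS_DT against HS_SCR, beside 11% of all loci lower and 8.06% higher.

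**Figure D5:**
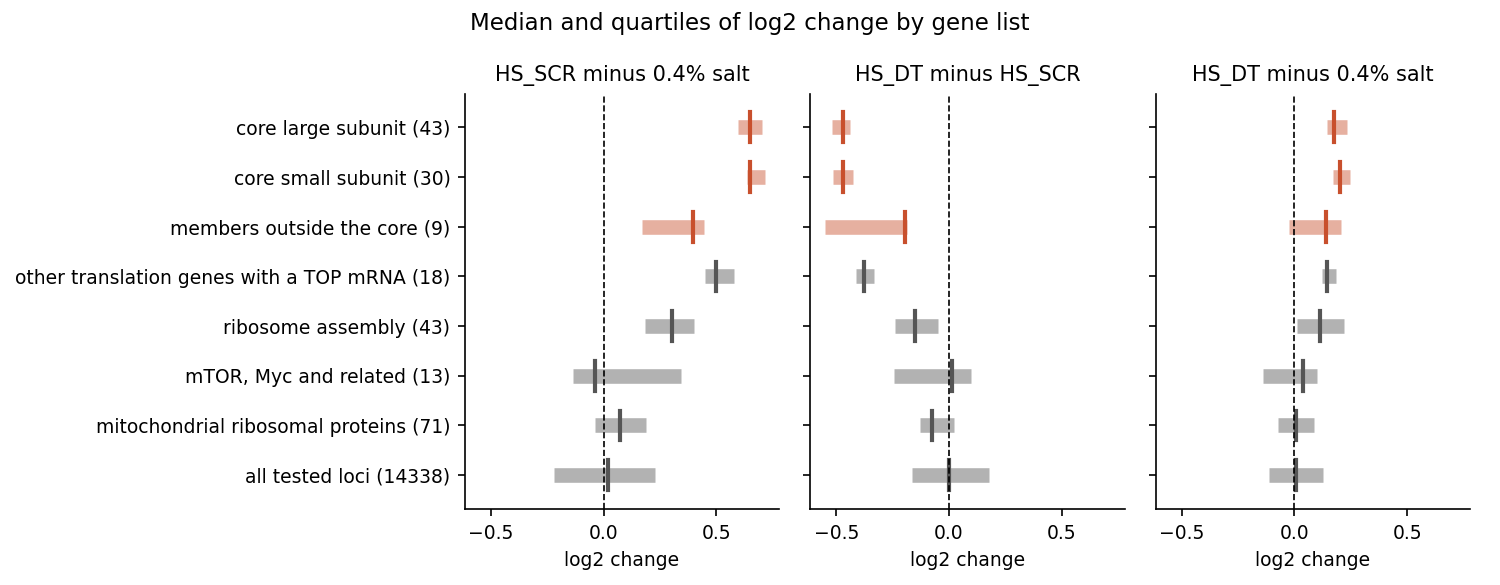
Median (line) and lower to upper quartile (bar) of log2 change for the ribosomal protein genes (orange) and other lists (grey), with the number of tested genes in brackets, in the 3 comparisons. In HS_SCR minus 0.4% salt the core genes have a median of 0.65, TOP genes 0.50, assembly genes 0.30 and mitochondrial ribosomal proteins 0.07.

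Among loci that the rule did not take, those whose pattern over the 9 libraries was most like the median core gene were Tpt1 (Pearson correlation 0.991), Fau (0.988), itself a ribosomal protein gene of the core list, Fam134c (0.986), Eif3i (0.985) and Naca (0.984). Of 14241 other loci, 351 exceeded 0.9. Tpt1, the translationally controlled tumour protein, stood at 2327, 1990 and 2021 FPKM in 0.4% salt, 3228, 3504 and 3240 in HS_SCR, with 2421, 2426 and 2422 in HS_DT, the same order of groups as the core genes.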

How the data were processed

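The deposited values are FPKM at 30315 loci in 9 libraries of rat renal outer medulla, computed by the authors. Per the submitters' processing notes, reads were handled with Trim Galore 0.2.5 and Cufflinks 2.2.1 on build rn5. Which aligner, annotation or scaling was used is not given in the sources used here. Trizol extraction and a NeoPrep library system are stated per the labels. Library columns were matched by rat number, and 1 further column, which repeats another, was not used. Read counts are not given, so depth is known only relatively: 81.6% to 86.4% of ratios of low values (loci with a mean under 0.15 FPKM) lay within 2% of a ratio of whole numbers up to 6. No counting interval is given.

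The scale was log2(FPKM + 1), and 14338 loci averaging 1 FPKM or more were tested. A fold change on this scale understates changes of low genes. Changes were tested two-sided with limma 3.58.1 (limma-trend) in R 4.3.3, in a single fit of 3 groups with 6 residual degrees of freedom, and p was adjusted by Benjamini-Hochberg over all tested loci of a comparison. A gene is called, or said to rise or fall, at an adjusted p under 0.05. Each rat gave 1 library, so the spread is that between rats. The fit was tested on simulated data. Paralog ratios were tested with exact permutation tests and adjusted over pairs and comparisons. Promoter windows came from RefSeq (GRCr8), from 250 bases before to 50 after the start.

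Named genes are all tested genes outside the core list, the 5 most abundant genes of each subunit, the 3 largest and 3 smallest changes of each subunit and comparison, core genes not called, members of the role lists, and up to 3 called genes of each other list. Eif3h, Eif4b, Mtor, Rheb, Max, Eif4ebp2, Larp4, Fau, Gnb2l1 and Eif3f were chosen after their values were seen, apart from those the rule also takes. The members and all lists were chosen with earlier results of these data known.

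Alternatives were a pseudocount of 0.1, no filter, median-ratio rescaling, a minimum mean of 5 FPKM, a common sum without mitochondrially encoded loci, quantile normalization, the replicate number as a block, rat number series or the proximal tubule score in the model, removal of the locus-width trend (lowess, span 0.3), a fit of the 2 groups compared, the sum of all rows of a name, and leaving out each library.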

Additional observations from a re-analysis of the deposited data

How the results depend on the processing

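Of HS_SCR against 0.4% salt, 72 ribosomal protein genes rose with all libraries, beside 8.20% of all loci. Without 1 library the count was 56 (1.8% of all loci) to 75 (20.5%). It was 6 under quantile normalization (6.35%) and 0 with the proximal tubule score in the model, where 0 of all loci passed. With no filter it was 66 of 87 (4.1%). On the common sum without mitochondrially encoded loci it was 59 (2.73%), and in the fit of the 2 groups 52 (2.27%). Between 0 and 1 fell without 1 library (1, Rps4y2, without HS_SCR replicate 1, beside 4.01% of all loci). The median change of 0.65 moved to 0.20 under quantile normalization, 0.39 on the common sum without mitochondrially encoded loci and 0.53 with the locus-width trend removed, and ran from 0.59 to 0.70 without 1 library (0.70 without 0.4% salt replicate 1).

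Of HS_DT against HS_SCR, the number called lower was 0 with all libraries, beside 0.00697% of all loci. It was 30 at a minimum mean of 5 FPKM (1.18% of all loci) and 48 with the series of rat numbers in the model (2.06%). Without 1 library it was 0 to 69 (69 without HS_SCR replicate 3, beside 9.29%, and 6 without HS_SCR replicate 1, beside 0.767%). Between 0 and 1 were called higher without 1 library (1, Rps4y2, without HS_SCR replicate 1, beside 0.488% of all loci). The median of -0.47 moved to -0.12 under quantile normalization, -0.28 on the common sum and -0.40 with the width trend removed, and ran from -0.47 to -0.45 without 1 library. Of HS_DT against 0.4% salt, no alternative called a ribosomal protein gene. Its median of 0.18 moved to 0.056 under quantile normalization and 0.11 on the common sum, and ran from 0.13 to 0.25 without 1 library (0.25 without 0.4% salt replicate 1). The causes of these shifts were not tested, except that leaving out a library leaves fewer samples.

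With the replicate number as a block, 72 genes rose in HS_SCR against 0.4% salt and 0 were called in the other comparisons, as without the block. The labels do not say that a number pairs rats, and correlations between residuals of same-numbered libraries ran from -0.08 to 0.26, over 0.1 in 5 of 9 pairs, so the block was not used in the main fit. Over all loci, calls of HS_SCR against 0.4% salt moved from 1175 higher and 699 lower to 1136 and 770 with the block, and those of HS_DT against HS_SCR from 1 lower to 0.

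Some single genes changed sign, none of them past the threshold under that alternative. From 0.4% salt to HS_SCR, Rps3 was at -0.037 under quantile normalization and Rpl7l1 at -0.087 on the common sum. Rpl10l was at -0.056 on the common sum, -0.92 with the proximal tubule score in the model, -0.052 with the width trend removed and -0.17 to 0.43 without 1 library. From HS_SCR to HS_DT under quantile normalization, Rpl27 was at 0.017, Rpl38 at 0.034, Rpl39 at 0.019, Rps29 at 0.054 and Rpl10l at -0.081. On the common sum Rpl22l1 was at 0.0034 and Rps27l at 0.0079, and Rpl10l was at -0.29 to 0.24 without 1 library.

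Centring on the median of the same subunit instead of all core genes gave the same number of genes called, and a pseudocount of 0.1 turned no paralog ratio. Relative depth differed by less than 2-fold between libraries and is not a limit at the levels of core genes, while Rpl10l and the Rps19 row lie near the filter.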
